A study of Homo sapiens with 34 samples.

Results

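The H3K27me3 landscape of androgen-independent (AI) LNCaP cells was set against that of androgen-dependent (AD) LNCaP cells, on chromosomes 1 to 22. The members were all 4 H3K27me3 peak lists of the series, 2 from AI and 2 from AD cells, out of 34 samples in all. LNCaP is an established human prostate cancer line. The AD cells were grown in RPMI1640 medium, and the AI cells, a derivative of the same line, in RPMI1640 with charcoal-stripped serum, from which steroids are largely removed. The 2 growth states therefore differed in both cell and medium, and these cannot be told apart; whether the derivative is 1 clone is not stated. Chromatin was fixed with formaldehyde, sonicated and immunoprecipitated with an antibody to H3K27me3. Each library's peaks were listed separately. Nothing in the labels says that the 2 replicates of a group came from separate cultures, so the spread between them may be technical. The rest of the series holds EZH2 peak lists, inputs, RNA-seq and RNA immunoprecipitation libraries. Of these, 3 EZH2 lists and 8 untreated or mock-transfected RNA-seq libraries are compared here. The RNA model was fitted over all 12 RNA-seq libraries, which also include AD and AI cells given EZH2 siRNA. The siRNA libraries entered its estimate of spread and its filter on low values, but not the contrasts.

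H3K27me3 is trimethylation of lysine 27 of histone H3. Polycomb repressive complex 2, with EZH2 as its enzyme, places it, and complexes of the PRC1 type that carry CBX proteins can read it. In differentiated cells it covers silent developmental regulators, often at CpG islands, and also spreads as broad low domains over gene-poor or silent regions. In prostate cancer EZH2 is often abundant, and the mark is studied as a means by which tumour cells keep genes silent.

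A gene start was counted as covered when at least 50% of the first 500 bases of the gene, counted from its RefSeq start, lay under peaks. The 6 promoters below, from RefSeq on GRCh38.p14, are shown because their genes carry the results that follow: FOXD1, IFNA8 and LDHB were covered at the start in both AI libraries and neither AD library, and SPRY2, TRIB2 and UGT8 in both AD libraries and neither AI library. Each runs from 250 bases before to 50 bases after the start, in the direction of transcription, with every CG dinucleotide in capitals. FOXD1 lies at chr5:73448728-73449027 (minus strand, 16 CG), IFNA8 at chr9:21408867-21409166 (plus strand, 1 CG) and LDHB at chr12:21657793-21658092 (minus strand, 14 CG). SPRY2 lies at chr13:80341077-80341376 (minus strand, 30 CG), TRIB2 at chr2:12716686-12716985 (plus strand, 42 CG) and UGT8 at chr4:114598152-114598451 (plus strand, 18 CG).
FOXD1: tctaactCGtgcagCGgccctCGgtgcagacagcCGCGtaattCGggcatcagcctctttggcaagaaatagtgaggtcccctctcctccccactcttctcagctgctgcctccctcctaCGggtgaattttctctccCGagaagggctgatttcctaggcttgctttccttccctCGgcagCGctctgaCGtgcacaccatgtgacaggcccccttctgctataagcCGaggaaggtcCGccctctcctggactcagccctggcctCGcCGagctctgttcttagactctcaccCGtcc
IFNA8: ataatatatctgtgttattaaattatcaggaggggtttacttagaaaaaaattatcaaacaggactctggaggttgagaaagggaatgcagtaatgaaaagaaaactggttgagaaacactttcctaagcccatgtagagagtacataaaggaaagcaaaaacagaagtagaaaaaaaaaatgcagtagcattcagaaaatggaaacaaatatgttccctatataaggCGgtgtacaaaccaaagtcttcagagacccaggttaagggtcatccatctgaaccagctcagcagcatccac
LDHB: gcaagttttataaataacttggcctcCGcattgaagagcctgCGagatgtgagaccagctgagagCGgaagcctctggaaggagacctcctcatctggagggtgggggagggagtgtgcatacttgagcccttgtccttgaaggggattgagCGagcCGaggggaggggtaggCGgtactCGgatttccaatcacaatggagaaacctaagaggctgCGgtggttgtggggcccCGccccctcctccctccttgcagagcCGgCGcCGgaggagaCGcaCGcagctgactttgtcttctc
SPRY2: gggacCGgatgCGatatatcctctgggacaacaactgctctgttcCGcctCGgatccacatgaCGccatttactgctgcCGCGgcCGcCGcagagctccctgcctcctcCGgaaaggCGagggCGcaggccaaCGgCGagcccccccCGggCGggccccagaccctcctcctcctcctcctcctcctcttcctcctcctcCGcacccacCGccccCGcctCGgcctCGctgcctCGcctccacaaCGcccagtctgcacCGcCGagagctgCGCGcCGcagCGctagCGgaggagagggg
TRIB2: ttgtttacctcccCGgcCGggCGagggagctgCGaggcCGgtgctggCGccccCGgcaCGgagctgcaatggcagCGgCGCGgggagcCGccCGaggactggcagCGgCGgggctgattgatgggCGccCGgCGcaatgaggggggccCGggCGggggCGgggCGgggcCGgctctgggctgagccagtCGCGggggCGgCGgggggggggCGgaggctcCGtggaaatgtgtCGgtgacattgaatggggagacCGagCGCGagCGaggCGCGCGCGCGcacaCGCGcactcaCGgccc
UGT8: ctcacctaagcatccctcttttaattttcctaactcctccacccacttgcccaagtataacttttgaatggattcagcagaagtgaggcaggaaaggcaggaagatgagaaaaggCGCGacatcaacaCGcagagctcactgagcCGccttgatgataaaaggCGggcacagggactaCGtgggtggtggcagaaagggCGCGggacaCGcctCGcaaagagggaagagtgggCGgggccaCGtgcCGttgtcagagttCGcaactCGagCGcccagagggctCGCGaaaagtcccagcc

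The label of the cells was checked in the untreated RNA-seq libraries. Of the luminal prostate markers, KLK3, the gene of prostate-specific antigen, was at 5055 and 3469 RPKM in AD and 1600 and 1286 RPKM in AI, and HOXB13, a prostate homeobox factor, at 206 and 204 RPKM in AD and 152 and 128 RPKM in AI. KLK2, TMPRSS2, FOLH1, KRT8 and KRT18 were each at 42.4 RPKM or more in all 4 libraries. Luminal markers did not all go the same way. KLK2, TMPRSS2 and FOLH1 were lower in both AI libraries. KRT8 was higher, at 141 and 85.8 RPKM in AD and 217 and 146 RPKM in AI. KRT18 overlapped, at 405 and 290 RPKM in AD and 515 and 402 RPKM in AI. Of the 3 basal markers KRT5 and TP63 were listed at 0 RPKM in all 4 libraries, and KRT14 was at 3.73 and 4.56 RPKM in AD and 1.07 and 1.25 RPKM in AI. Of the 3 endothelial markers PECAM1 and CDH5 were listed at 0 RPKM, and VWF was at 3.53 and 3.28 RPKM in AD and 0.4 and 0.5 RPKM in AI. The 4 fibroblast and muscle markers summed to 2.54 and 2.41 RPKM in AD and 1.32 and 1.18 RPKM in AI, with DES at 0. The 3 blood markers summed to at most 0.09 RPKM. Of the other marker lists, the neuroendocrine list summed to 40.07 and 32.64 RPKM in AD and 8.07 and 7.28 RPKM in AI, nearly all from ENO2, with CHGA at 0 to 0.07 RPKM. The part of these differences in the results below was not tested. A peak list holds no read counts, so the sequencing depth behind each list is unknown here. With 2 lists against 2, an exact permutation test of a single value cannot go below p = 0.333, so coverage was compared by whether the values of the groups overlapped, and no p-value was computed for it.

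AI chromatin carried its H3K27me3 in wider peaks, while the amount of the genome under peaks did not separate the groups. Peaks covered 7.93% and 6.37% of the autosomes in AD replicates 1 and 2, and 7.88% and 7.36% in AI replicates 1 and 2, so the groups overlapped. The median peak was 1311 and 1833 bases wide in AD and 2144 and 2005 bases in AI, with both AI values above both AD values. The distance between groups grew towards the long end of the distribution. The widest 1% of peaks started at 8682 and 11814 bases in AD and at 16693 and 15130 bases in AI. Peaks of 10 kb or more numbered 745 and 1135 in AD and 2828 and 2308 in AI. AD replicate 1 stood apart by the number of its peaks, 122813 against 69763 to 72027 in the other 3 libraries, and without it the difference between the groups in median width was 242 bases, against 502 bases with all 4.

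**Figure D1:**
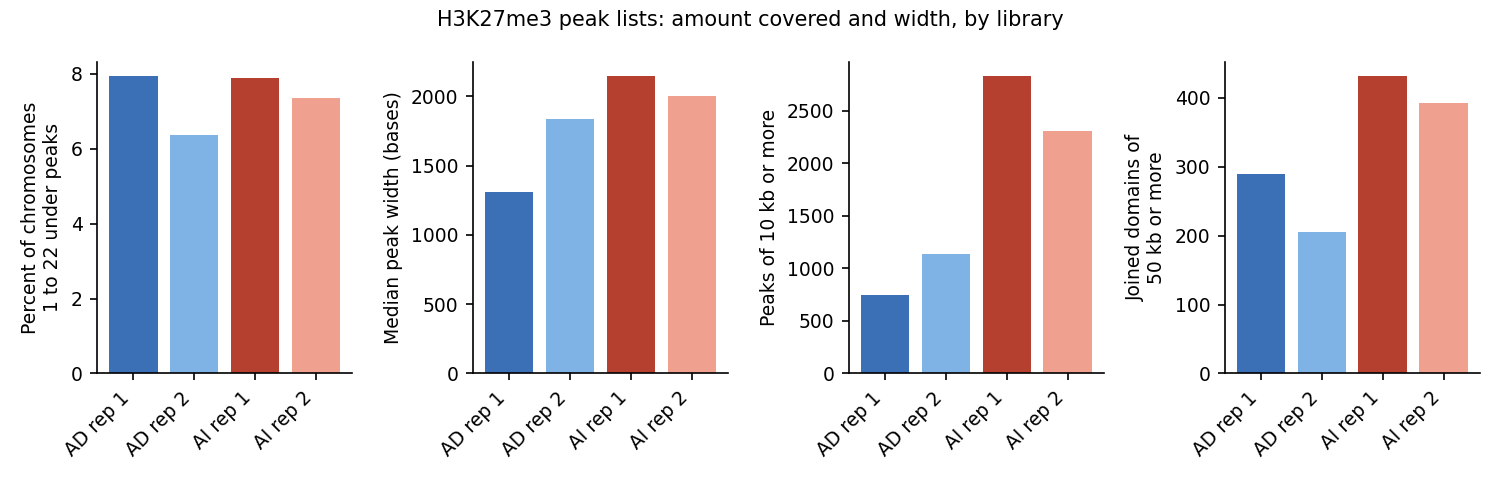
Bars give, for each of the 4 H3K27me3 libraries, the percent of chromosomes 1 to 22 under peaks, the median peak width in bases, the number of peaks of 10 kb or more and the number of joined domains of 50 kb or more. The percent covered overlaps between AD and AI, whereas both AI libraries lie above both AD libraries in the other 3 panels.

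Peak callers split broad domains, so peaks of a list were also joined across gaps of up to 3000 bases. Joined domains of 10 kb or more then numbered 7529 and 5094 in AD and 6997 and 6467 in AI, and the groups overlapped. These domains held 52.6% and 48.1% of all joined length in AD and 61.3% and 59.8% in AI, which did not overlap. Domains of 50 kb or more numbered 290 and 205 in AD and 431 and 393 in AI. That order depended on the joining distance: with gaps of up to 10000 bases the counts at 50 kb or more were 2174 and 1255 in AD and 1613 and 1450 in AI, and the groups overlapped. At 10 kb or more the same gap gave 10378 and 8147 domains in AD and 7996 and 7619 in AI, with both AI lists below both AD lists. A gap of up to 1000 bases gave the opposite order, with 3409 and 2861 in AD and 5144 and 4623 in AI. Broad domains were also shared more within AI than within AD. Of the 10 kb domains of AI replicates 1 and 2, 79.8% and 82.2% had at least 50% of their bases under the other AI list's peaks, and 38.5% to 51.5% under an AD list's. Of the domains of AD replicates 1 and 2, 48.1% and 73.5% were covered in this way by the other AD list and 51.3% to 63.6% by an AI list.

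The bases covered differed in part between the growth states. The 2 AI lists shared 52.2% of the bases covered by either (a Jaccard index), the 2 AD lists shared 40.2%, and the 4 pairs of an AD with an AI list shared between 30.1% and 36.5%. Of the 408 Mb covered in any list, 59.3 Mb (14.5%) lay under peaks in all 4, 45.5 Mb (11.2%) in both AI lists and neither AD list, and 30.2 Mb (7.4%) in both AD lists and neither AI list. EZH2 peaks, which the comparison of H3K27me3 lists did not use, lay at different densities on these classes. On bases covered in AD alone, EZH2 peaks numbered 43.9 and 8.06 per Mb in the 2 AD EZH2 lists and 6.96 per Mb in the single AI EZH2 list, against 18.7, 4.29 and 4.12 per Mb over the autosomes. On bases covered in AI alone they numbered 8.66 and 3.56 per Mb in AD and 3.91 per Mb in AI, below the autosomal density in each of the 3 lists. The EZH2 lists differed in size, with 53638 and 12317 peaks in AD and 11852 in AI, so each density is read only against its own list, and the single AI list has no replicate.

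Chromosome 9 showed the largest relative difference of any autosome. Peaks covered 3.83% and 3.13% of it in AD and 5.83% and 5.62% in AI, and its share of all covered bases was 2.33% and 2.36% in AD and 3.56% and 3.67% in AI. Both AI libraries lay above both AD libraries, and the ratio of mean shares was 1.54. The share of EZH2 peaks that fell on chromosome 9 was 2.13% and 2.33% in AD and 4.79% in AI. Chromosome copy number differences between the lines could not be measured from peak lists, and their part in this was not tested. Chromosome 21 (8.18% and 7.37% covered in AD, 10.7% and 10.3% in AI), chromosome 13 (4.93% and 3.45%, then 5.85% and 5.52%) and chromosomes 7 and 12 also lay higher in both AI libraries. By percent covered, chromosome 10 was the only autosome lower in both AI libraries, at 9.14% and 8.33% in AD and 8.31% and 7.54% in AI, with AD replicate 2 and AI replicate 1 nearly equal. On the other 16 autosomes the percent covered overlapped between the groups. By share of all covered bases, which takes out the size of each list, 8 autosomes were higher in both AI libraries (2, 6, 7, 9, 11, 12, 13 and 21) and 8 lower (1, 5, 8, 10, 14, 15, 16 and 18).

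**Figure D2:**
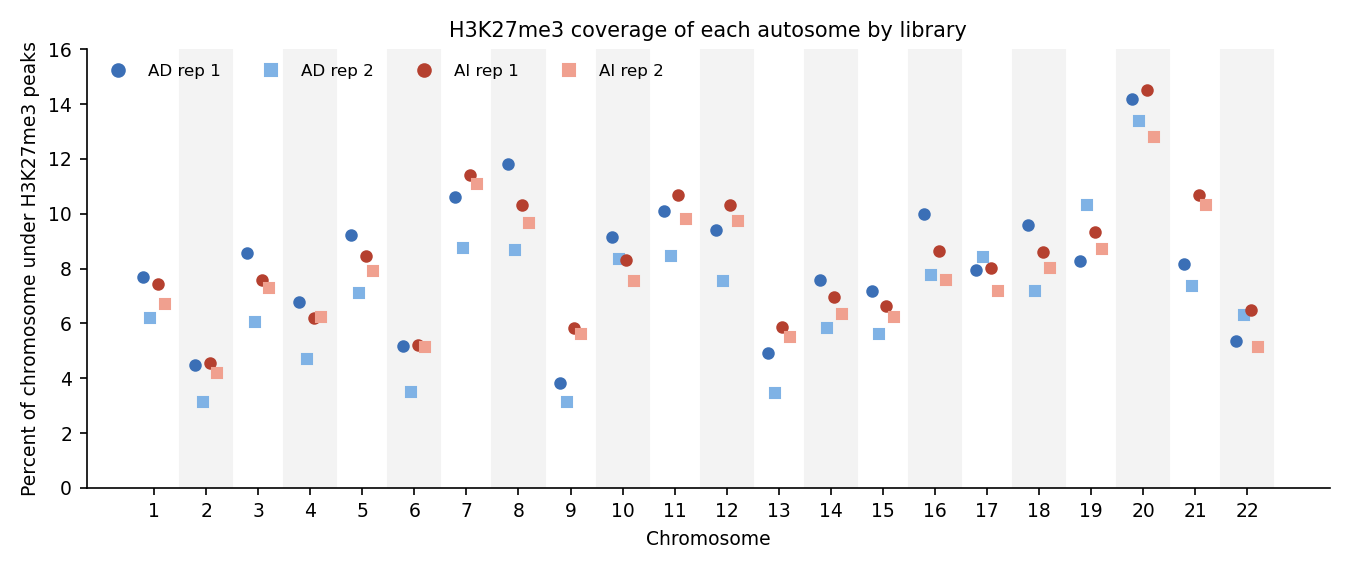
Each point is the percent of 1 chromosome under H3K27me3 peaks in 1 library, with AD in blue and AI in red, and circles and squares for replicates 1 and 2. On chromosomes 7, 9, 12, 13 and 21 both AI points lie above both AD points, and on chromosome 9 the AD points reach at most 3.83% and the AI points at least 5.62%.

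Windows of 1 Mb located the differences. Of 2864 windows, 965 (33.7%) were covered more in every AI than in every AD library, and 532 (18.6%) less. With a gap of at least 10 percentage points between the nearest libraries of the groups, 78 windows (2.72%) were higher in AI and 45 (1.57%) lower. The longest run of adjacent windows that were higher by this rule spanned 3 Mb at chr7:83000001-86000000, with a mean of 19.2% and 18.8% covered in AD and 44.6% and 44.7% in AI. It holds SEMA3E, SEMA3A and SEMA3D, which encode class 3 semaphorins, secreted guidance cues of axons and vessels. Within it, the window at chr7:85000001-86000000 had the largest gap on the autosomes in this direction, with 16% and 17.6% covered in AD and 50.6% and 48.8% in AI. Further along chromosome 7, the window at chr7:81000001-82000000 with HGF, the ligand of the MET receptor, and CACNA2D1, a calcium channel subunit, was covered at 15.1% and 14.5% in AD and 43.7% and 41.1% in AI. At chr9:21000001-22000000, the window with the type I interferon genes, coverage was 13.3% and 7.05% in AD and 36.7% and 41.8% in AI. The window at chr14:82000001-83000000 holds no protein-coding gene and was covered at 14.1% and 9.66% in AD and 38.2% and 39.5% in AI. The window at chr7:79000001-80000000, which overlaps part of MAGI2, a scaffold protein gene, was covered at 22.7% and 15.3% in AD and 49.9% and 46.5% in AI. That at chr7:84000001-85000000, with SEMA3A, was covered at 20.4% and 19.6% in AD and 43.8% and 45.4% in AI. Chromosome 7 alone held 14 of the 78 windows.

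The largest difference of all was a lower coverage in AI near the end of the short arm of chromosome 5. Windows lower in AI by at least 10 points ran for 4 Mb at chr5:2000001-6000000, with a mean of 46.4% and 49.8% covered in AD and 16.5% and 11.5% in AI. In the window at chr5:3000001-4000000 coverage was 50.5% and 63.5% in AD and 3.72% and 3.04% in AI. IRX1, an Iroquois homeobox gene and the only protein-coding gene in that window, did not follow it: its span was covered at 0% and 98.2% in AD and at 0% and 70.2% in AI, so the replicates of each group disagreed. The window at chr10:4000001-5000000, with the aldo-keto reductase genes AKR1C1, AKR1C2 and AKR1E2, was covered at 42.7% and 34.7% in AD and 8.86% and 8.32% in AI. The window at chr12:128000001-129000000, with TMEM132C, SLC15A4 and GLT1D1, was covered at 31.8% and 30.4% in AD and 5.05% and 3.09% in AI, and that at chr11:133000001-134000000, with OPCML, at 54.3% and 47.0% in AD and 21.6% and 20.6% in AI. The window at chr20:42000001-43000000, which lies largely in the receptor phosphatase gene PTPRT, went from 45.7% and 33.7% in AD to 8.36% and 5.17% in AI. That at chr19:31000001-32000000, with the homeobox and zinc finger gene TSHZ3, went from 41.3% and 37.2% in AD to 11.9% and 6.03% in AI.

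The windows with the largest lower coverage lay near chromosome ends more often than those with the largest higher coverage. The look at chromosome ends was chosen after the windows had been seen. Of the 45 windows lower in AI by at least 10 points, 23 (51.1%) lay within 10 Mb of a chromosome end, with a median distance of 9.0 Mb. Of the 78 higher windows, 3 (3.85%) lay that near, with a median distance of 40 Mb. Over all windows the share within 10 Mb was 15.4% and the median distance 33.2 Mb. The 532 windows lower in AI by any amount were close to this, with 17.9% within 10 Mb and a median of 31.2 Mb, and of the 965 higher by any amount 9.02% lay that near, with a median of 38.7 Mb. Adjacent windows are not independent, since 1 domain can fill several.

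**Figure D3:**
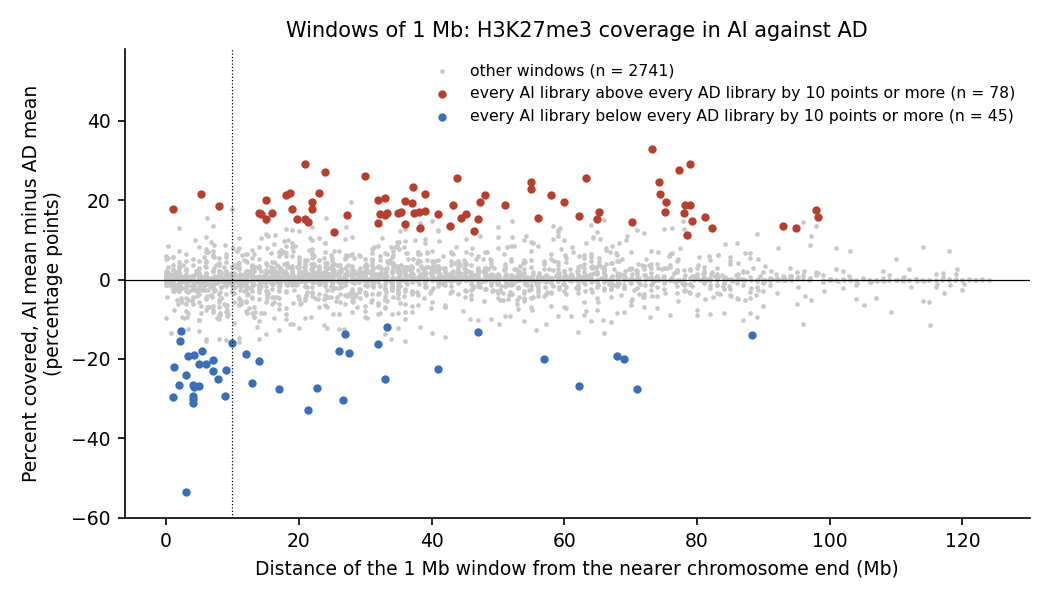
Each point is a 1 Mb window, placed by its distance in Mb from the nearer chromosome end and by the mean percent covered in AI minus that in AD. The 78 windows in red and 45 in blue differ by at least 10 points between the nearest libraries, and 23 of the 45 blue windows lie left of the dotted line at 10 Mb, against 3 of the 78 red ones.

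Gene starts were covered to different extents in the 2 AI libraries. Of 26245 protein-coding and lncRNA genes with an annotated start, 2201 (8.39%) and 2514 (9.58%) were covered in AD and 1808 (6.89%) and 3311 (12.6%) in AI, so the AI replicates lay on either side of both AD replicates. The disagreement was largest at CG-rich promoters. Protein-coding promoters whose start was covered held a median of 14 and 15 CG in AD, 6 in AI replicate 1 and 23 in AI replicate 2. Of them, 58.1% and 61.2% in AD, 36.3% in AI replicate 1 and 74.9% in AI replicate 2 held 10 or more CG, against 72.9% of all protein-coding promoters, counted on 1 strand, which gives the same number as the other. Promoters of RefSeq were matched for 15100 of 19122 protein-coding genes and none on chromosome 8.

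Starts that differed in both replicates were few; a start is called covered only in AI when it was covered in both AI and neither AD library, and the reverse for AD. They numbered 254 (0.968%) covered in both AI and neither AD library, of which 122 were protein-coding, and 206 (0.785%) covered in both AD and neither AI library, of which 62 were protein-coding. Starts covered in all 4 libraries numbered 640 (2.44%). The first of these counts depended most on AI replicate 1: without it 1330 starts were covered in AI replicate 2 and neither AD library, against 415 to 450 without any 1 of the other 3. The second was 698 without AI replicate 2 and 377 to 593 without any of the others. Fewer libraries make the rule easier to meet, so all of these counts exceed those with 4. The promoters of the 122 protein-coding genes covered in AI held a median of 6 CG and those of the 62 covered in AD a median of 8, against 22 over all protein-coding promoters and 8 at those covered in all 4 libraries.

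Whole genes that were higher in AI included several with no peak at all in AD. Among 36320 genes of at least 2000 bases, 87 (0.24%) had a covered share of their span higher by at least 50 percentage points in every AI than in every AD library, and 71 (0.195%) lower. KLK8, a kallikrein protease gene in the kallikrein cluster of chromosome 19 (chr19:50996008-51001604), was covered at 0% in both AD and 100% in both AI libraries. FOXD1, a forkhead transcription factor of kidney stroma (chr5:73446266-73448777), and RD3L (chr14:103940426-103942529) had the same values, 0% in both AD and 100% in both AI libraries. NEUROD4, a neurogenic basic helix-loop-helix factor (chr12:55019974-55030017), was covered at 8.47% and 9.63% in AD and 90.5% and 99.5% in AI. IFNG, the gene of interferon gamma (chr12:68154768-68159740), was covered at 26.9% and 0% in AD and 100% and 98.6% in AI. DUSP6, a phosphatase that dampens ERK signalling (chr12:89347235-89352501), was covered at 0% in both AD libraries and at 69.5% and 70.9% in AI. In each of these genes the groups were far apart. The 12 protein-coding genes with the widest gaps were completed by LOC124900752, MARCOL, ASIC3, ZACN, GALR2 and BEST2, at most 8.47% covered in AD and at least 66.3% in AI. GALR2, a galanin receptor, and ZACN, a zinc-activated channel, are neighbours on chromosome 17, as LOC124900752 and the start of LEF1 are on chromosome 4, so such pairs may share 1 domain. HGF also passed the rule, covered at 31.0% and 33.4% in AD and 93.7% and 89.4% in AI. Just inside and outside the rule lay SEMA3D, with a gap of 50.8 points, and PTGS2, the inducible cyclooxygenase gene, with 49.9 points.

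Of the 71 genes lower in AI, 15 were protein-coding. SPRY2, a Sprouty inhibitor of growth factor signalling (chr13:80335976-80341126), was covered at 82.5% and 88.4% in AD and at 0% in both AI libraries. TRIB2, a Tribbles pseudokinase (chr2:12716936-12742734), was covered at 57.8% and 59.9% in AD and at 0% in both AI libraries. KIF2B, a kinesin gene (chr17:53822927-53825193), and CTSG, the cathepsin G gene (chr14:24573518-24576250), went from 100% in both AD to 0% in both AI libraries. The neighbours DPPA2 and DPPA4, genes of pluripotent and germ cells on chromosome 3, were covered at 77.9% and 80.8% and at 93.5% and 88.1% in AD, and at 18.4% and 15.3% and at 15.7% and 10.1% in AI. The neighbours CEACAM18 and SIGLEC6 on chromosome 19 were covered at 74.7% to 98.1% in AD and at 0% in AI. SIGLEC12 between them was covered at 87.1% and 86.4% in AD and 50.8% and 53.2% in AI, and SIGLEC8 beside them at 88.1% and 89.9% in AD and 89.5% and 89.6% in AI. These 2 genes were chosen after their values were seen. The list of 12 was completed by CA3, TRIML1, LOC124902898 and FBXO39, at least 62.5% covered in AD and at most 19.8% in AI. Just inside the rule lay UBQLNL, with a gap of 50.5 points.

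**Figure D4:**
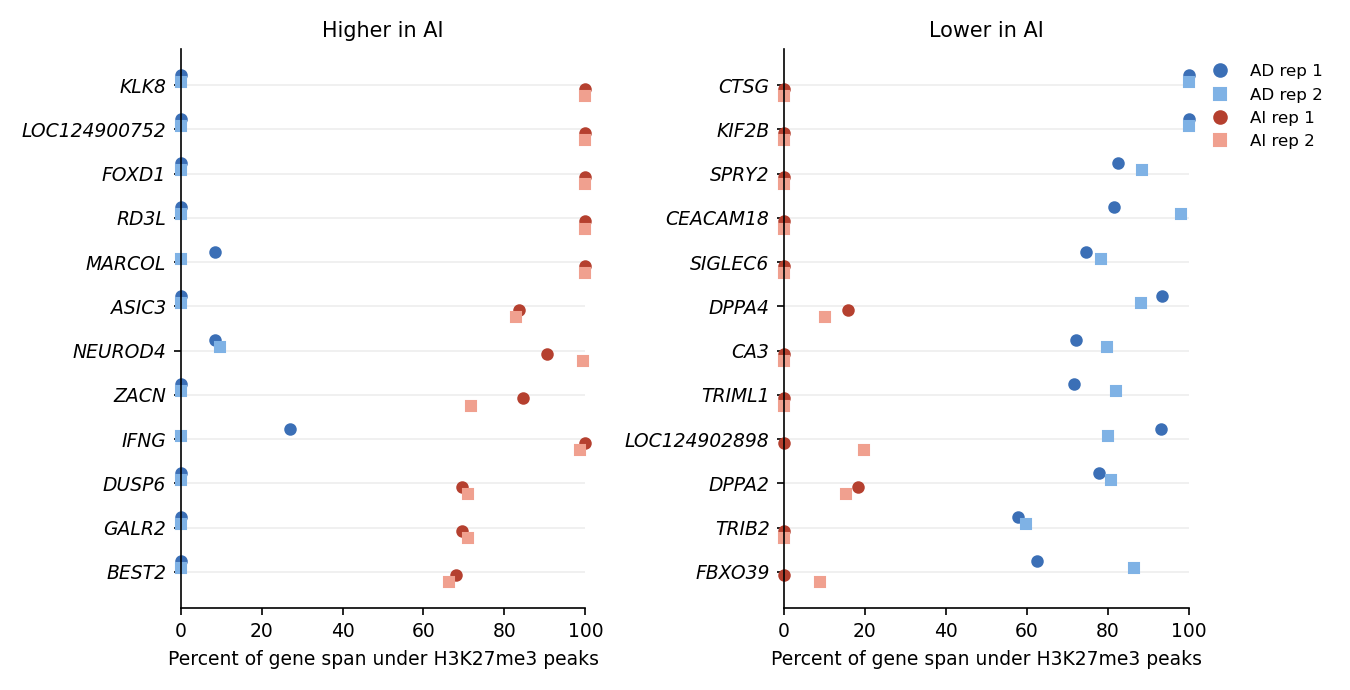
Points give the percent of the gene's span under H3K27me3 peaks in each of the 4 libraries for the 12 protein-coding genes with the largest gap in each direction. For SPRY2 and TRIB2 both AI points are at 0%, and for KLK8 and FOXD1 both AD points are at 0%.

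Genes were also ranked by the gap in covered bases, a measure that favours long genes. Protein-coding genes of 300 kb or more as a class overlapped between the groups, with mean spans covered at 11.9% and 9.27% in AD and 11.5% and 10.5% in AI. PCDH9, a protocadherin gene, was covered at 15% and 10.2% in AD and 39.6% and 43.9% in AI, a gap of 228 kb between the nearest libraries. MAGI2 (27.7% and 21.1% in AD, 44.2% and 41.7% in AI), SEMA3A (20.9% and 20.1%, then 59.1% and 58.1%) and CPED1 (20.6% and 10.7%, then 71.8% and 67.0%) were also higher in AI. ADAMTS6, a metalloprotease gene, was at 0% in both AD libraries and at 39.9% and 40.1% in AI. CCDC178, CACNA2D1 and SOX6 completed these 8 genes. In the other direction PTPRT was covered at 47.7% and 34.2% in AD and 8.58% and 5.4% in AI, a gap of 297 kb. OPCML, a cell adhesion gene, was at 40.6% and 30.0% in AD and 5.08% and 3.9% in AI. EPHB1, an ephrin receptor gene, was at 59.1% and 45% in AD and 7.51% and 6.77% in AI. CELF2, CSMD1, CTNNA3, RBFOX1 and DPP6 completed this list, each with both AI libraries below both AD libraries. Of these 16 long genes, 0 passed the rule on 50 points of the span.

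Gene families differed in direction, and some only in 1 AI library. The 15 type I interferon genes, antiviral cytokines in 1 cluster on chromosome 9, had a mean of 0% and 0.893% of their span covered in AD and 19.8% and 19.6% in AI. Their median covered span was 0% in all 4 libraries, so a minority of the genes carried these means. Starts of 3 of the 12 with an annotated start (IFNA14, IFNA5 and IFNA8) were covered in both AI and neither AD library, against 0.968% of all starts. IFNA8 was covered over 100% and 90.3% of its span in AI and IFNA2 over 44.8% and 48.7%, with 0% and 13.4% for IFNA2 in AD. The IFNA genes of this family are close copies of each other, and reads that match several of them could be placed on any or lost, so their single values are uncertain. CDKN2A and MTAP, next to the cluster, were covered at most at 4.81% in any library.

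Olfactory receptors, a large family of odorant receptors silent outside the nose, had 19 starts covered only in AI and 4 only in AD, of 311, against 0.968% and 0.785% of all starts. Their mean covered span was 21.1% and 16.3% in AD and 22.8% and 22% in AI. The pattern followed clusters. On chromosome 12, 6 of 16 starts were covered only in AI (OR9K2, OR6C74, OR6C1, OR6C3, OR6C76 and OR6C68) and 0 only in AD, and 11 of 18 genes had both AI spans above both AD spans. OR6C76 went from 0% in both AD to 100% in both AI libraries and OR9K2 from 35.1% and 33.1% to 100% in both. NEUROD4 lies beside OR9K2 at the edge of the same cluster. On chromosome 1 the order was the opposite, with 3 of 51 starts covered only in AD (OR10T2, OR6K3 and OR6K6), 0 only in AI, and 7 of 61 genes with both AI spans below both AD spans. The share of all genes whose spans separated in this way is not given here. Such counts of spans therefore describe the clusters and are not read as above a background.

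Other families of clustered genes differed in 1 or the other direction. Beta-defensins, antimicrobial peptide genes, had a mean covered span of 11.4% and 8.28% in AD and 19.5% and 17.3% in AI, and the starts of DEFB125 and DEFB128 on chromosome 20 were covered only in AI. Their median covered span was 0% in all 4 libraries. On chromosome 20, 7 of 13 of these genes had both AI spans above both AD spans. On chromosome 8, 0 of 19 had both above and 1 had both below. Serpins, a family of protease inhibitors, had means of 14.6% and 13.0% in AD and 8.41% and 7.54% in AI. Of the 10 serpin genes on chromosome 18, 6 had both AI spans below both AD spans. SERPINB2 among them was covered at 40.1% and 28.1% in AD and at 0% in both AI libraries. Keratin-associated proteins, hair matrix genes, had means of 12.8% and 17.0% in AD and 10.1% and 5.3% in AI, with the starts of KRTAP4-3 and KRTAP11-1 covered only in AD. Few single genes of this family separated the groups. Both AI spans lay below both AD spans in 1 of 34 genes on chromosome 17, 1 of 49 on chromosome 21 and 0 of 11 on chromosome 11. Clustered protocadherins, neuronal adhesion genes, had means of 19.1% and 19.3% in AD and 17.0% and 15.8% in AI, with the starts of PCDHB3, PCDHB4 and PCDHGB3 covered only in AD. Their single genes went both ways: of 53, 12 had both AI spans below both AD spans and 7 had both above. Over all protein-coding genes the means were 4.86% and 5.59% in AD and 5.38% and 6.95% in AI. For the counts of separate spans in these families, too, the share over all genes is not given here.

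At developmental regulators the 2 AI libraries disagreed by more than the groups did. The 39 HOX genes, which set position along the body axis, had a mean covered span of 15.6% and 19.8% in AD, 8.37% in AI replicate 1 and 38.6% in AI replicate 2. The 241 developmental transcription factors outside the HOX clusters had means of 16.2% and 17.4% in AD and 8.34% and 36.9% in AI. The 46 ligands and inhibitors of WNT, FGF, BMP and hedgehog signalling had means of 28.4% and 28.9% in AD and 8.15% and 38.4% in AI. HOXB8 shows the pattern, at 100% in both AD libraries, 0% in AI replicate 1 and 100% in AI replicate 2. So does INSM1, a neuroendocrine transcription factor gene, with the same values, and both were chosen after these were seen. HOX starts differing in both replicates numbered 0 of 20, which is near the 0.968% and 0.785% of all starts. Among the other developmental factors FOXD1, ZIC1, ZIC4, LHX2, LHX8 and NEUROD4 had starts covered in both AI and neither AD library, 6 of 170 (3.53%, against 0.968% of all starts), and DLX6 alone had a start covered only in AD. ZIC1, a zinc finger factor of the neural tube, was at 0% of its span in both AD and 61.6% in both AI libraries, and ONECUT3 at 0% in AD and 56.5% and 85.9% in AI.

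**Figure D5:**
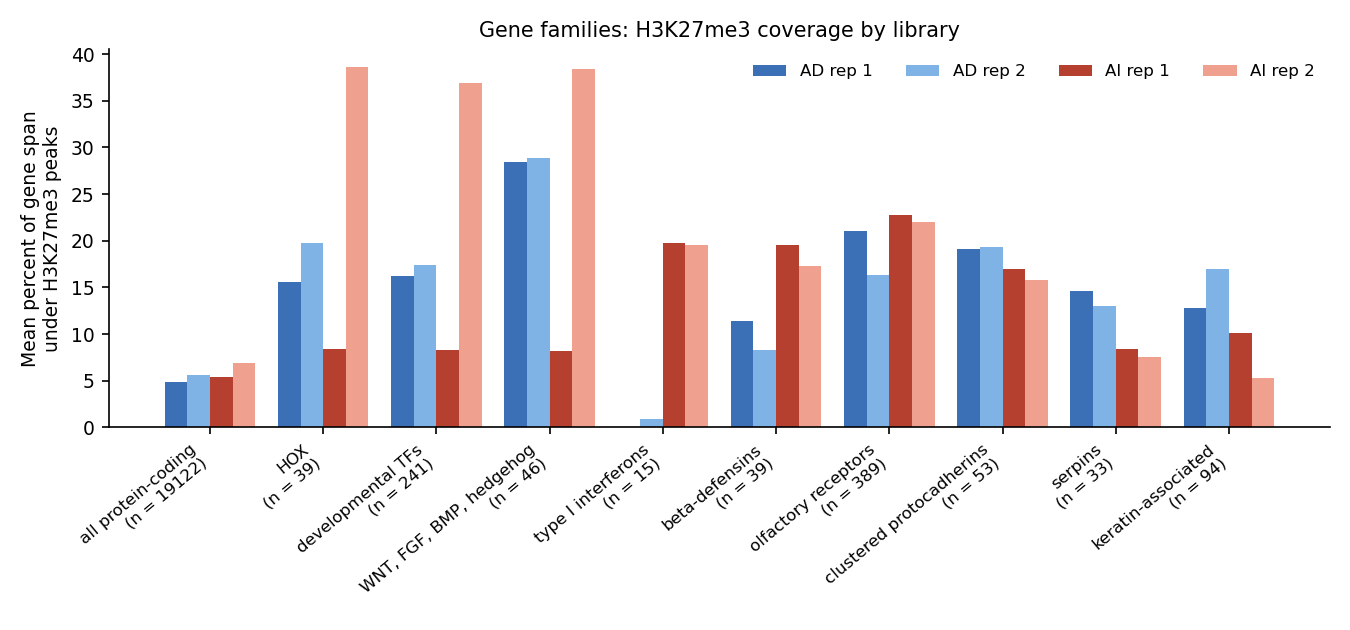
Bars give the mean percent of gene span under H3K27me3 peaks in each library for all protein-coding genes and 9 gene families, with the number of genes in brackets. Type I interferons and beta-defensins lie higher in both AI libraries and serpins and keratin-associated proteins lower, whereas AI replicates 1 and 2 lie on either side of both AD libraries for HOX genes (8.37% and 38.6%).

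In lists chosen for prostate cancer biology 0 genes passed the rules on starts or spans. Over all genes the shares were 0.968% and 0.785% of starts and 0.24% and 0.195% of spans, and in lists of this size a count of 0 is near that share. Of the 24 androgen-induced genes, 18 had an annotated start and 0 of these were covered in any library, with mean spans of at most 0.417%. Genes of cholesterol synthesis, cytosolic ribosomal proteins and clustered histone genes were at 0% in all 4 libraries. Of 23 measured genes described as silenced by EZH2, mean spans were 7.83% and 8.05% in AD and 8.2% and 14.3% in AI, and SLIT2, an axon guidance ligand, was at 30.6% and 26.6% in AD and 33.7% and 35.6% in AI. Of the genes of the Polycomb complexes, only BMI1, a PRC1 subunit, had a span gap above 40 points: it was at 0% in both AD libraries and at 48.8% and 51.4% in AI. Its RNA was at 1.37 and 3.18 RPKM in AD and 3.69 and 5.82 RPKM in AI, which did not pass (adjusted p = 0.0747, limma). The 33 neuronal and neuroendocrine genes had mean spans of 23.7% and 18.1% in AD and 17.8% and 29.2% in AI, which overlapped. Single genes of this list went both ways. Among them BASP1, a growth cone membrane protein gene, was at 64.5% and 56.0% in AD and 13.5% and 17.2% in AI. BMI1 and BASP1 were chosen after their values were seen.

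RNA-seq gave a readout that the peak lists did not use, but few of the genes above could be tested. Many had no RNA value joined to them, and most of the rest were too low. Values are RPKM, and fold changes are on the scale of log2(RPKM + 0.5), which understates the change of low genes; limma was fitted over 14227 genes and 12 libraries. Over all genes, 22.2% rose and 12.4% fell in untreated AI against untreated AD cells. Of the 254 genes with starts covered only in AI, 90 were joined to an RNA value. Of those, 20 passed the filter on low values, and of these 1 rose and 5 fell (25%). Of the 31 tested genes with starts covered in all 4 libraries, 5 rose and 10 fell (32.3%), so these counts show no fall particular to starts covered only in AI. Of the 206 with starts covered only in AD, 47 were joined to an RNA value and 4 passed the filter. Of these 4 genes, 3 rose and the other did not pass the test. Genes that pass the filter only where they are high had to differ, so these counts describe the genes tested and not the lists. In mock-transfected cells 12.2% of all genes rose and 43.5% fell, with a median change of -0.41, and of the same 20 genes 1 rose and 12 fell (60.0%), and of the same 4 genes 1 rose and 2 fell. Of the 31 genes covered in all 4 libraries 17 fell (54.8%) there.

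The genes covered only in AI that fell included abundant and rare transcripts. SLITRK3, a synaptic adhesion gene, was at 3.51 and 5.81 RPKM in AD and 0.47 and 0.75 RPKM in AI, a log2 change of -2.19 (SE 0.242, adjusted p = 0.000174, limma). Its span was covered at 0% in AD and at 46.3% and 49.4% in AI. FOXD1 was at 3.19 and 3.18 RPKM in AD and 0.31 and 0.66 RPKM in AI, a change of -1.93 (SE 0.193, adjusted p = 0.000103, limma). LDHB, the lactate dehydrogenase subunit that favours lactate oxidation, was at 319.6 and 285.5 RPKM in AD and 120.2 and 107.5 RPKM in AI, a change of -1.41 (SE 0.112, adjusted p = 2.65e-05, limma). It stayed well expressed in AI although its start was covered in both AI libraries and its span at 26.4% and 46.6%, against 0% in AD. FSD1 fell by 1.73 (adjusted p = 0.00375, limma), but its span was covered at 0% and 12.8% in AD and 26.0% and 8.51% in AI, which overlapped. HAP1 fell by 0.52 (adjusted p = 0.0412, limma), a call lost in 8 of 10 alternatives. In mock-transfected cells SLITRK3 (-3.00), FOXD1 (-0.92), FSD1 (-4.09) and HAP1 (-1.83) fell by more than the median of all genes, whereas LDHB (-0.32) did not. Among the untreated and mock libraries, HAP1 reached 0.5 RPKM only in AD cells. SLITRK3 reached it in AI only in untreated replicate 2 (0.75 RPKM), and FSD1 only in mock replicate 2 (0.94 RPKM). In these libraries the 3 genes passed the filter through AD cells, so the filter bore on their direction.

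LEF1, a transcription factor of WNT signalling, went the other way: its start was covered only in AI, over 1.3% and 2.69% of the gene, and its RNA rose from 0 and 0.04 RPKM in AD to 0.79 and 0.72 RPKM in AI (log2 change 1.27, adjusted p = 0.000718, limma). In mock-transfected cells it fell (-0.80, adjusted p = 0.00411, limma). Of the genes with starts covered only in AD, UGT8, the enzyme of galactocerebroside synthesis, was at 0 and 0.01 RPKM in AD and 1.16 and 1.59 RPKM in AI, a change of 1.88 (SE 0.199, adjusted p = 0.000136, limma). LRATD1 rose by 1.61 (adjusted p = 0.000935, limma), with its span covered at 25.4% and 16.3% in AD and at 0% and 13.4% in AI. TRIB2 rose by 0.50 (adjusted p = 0.0403, limma), from 0.01 and 0 RPKM to 0.22 and 0.21 RPKM, a call lost in 7 of 9 alternatives. In mock-transfected cells TRIB2 rose (1.10, adjusted p = 0.000365, limma), UGT8 did not pass (-0.22, adjusted p = 0.363, limma) and LRATD1 fell (-0.64, adjusted p = 0.046, limma). The median change of all genes there was -0.41. UGT8 lay above that median, and LRATD1 and LEF1 lay below it, LRATD1 by less than LEF1. BASP1 passed neither the rule on starts nor that on spans and was chosen after its values were seen. In untreated cells it was at 0 and 0.03 RPKM in AD and 22.3 and 16.6 RPKM in AI (5.26, adjusted p = 6.3e-07, limma). Its change in mock-transfected cells is not reported here. SPRY2, whose span went from at least 82.5% covered to 0%, was at 0 and 0.06 RPKM in AD and 0.48 and 0.62 RPKM in AI, and did not pass the filter. LEF1, BASP1, UGT8, LRATD1 and TRIB2 were near 0 RPKM in untreated AD cells and passed the filter through libraries where they were higher, so the filter bore on their direction.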

How the data were processed

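H3K27me3 ChIP-seq peak lists from 2 AD and 2 AI LNCaP libraries were compared on chromosomes 1 to 22. Per the submitters' processing notes, reads were handled with cutadapt and Bowtie2 for ChIP-seq and TopHat2 and edgeR for RNA-seq, on GRCh38; no version, caller setting or annotation is named there. The deposited peak lists give 1 score per peak, the authors' own, with a smallest value of 50, and the deposited lists' names pair each sample with 1 input. The deposited RNA-seq values are RPKM, scaled by the authors to gene length and library size. Read counts were not used here, so depth is unknown and limits the precision of each list to an unknown extent.

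Coverage was computed in python 3.11.15 (pandas 2.3.3, numpy 2.4.6). Chromosome length was the furthest RefSeq gene or peak end, 2873.8 Mb in all. Exons and a genome sequence were not used here, so the first 500 bases of each gene stood in for the first exon. Genes came from RefSeq on GRCh38.p14, and 26245 autosomal genes had a start there. RNA was tested with limma 3.58.1 (R 4.3.3) on log2(RPKM + 0.5), with Benjamini-Hochberg adjustment at 0.05. The fit used all 12 libraries, EZH2 siRNA libraries included, and genes at 0.5 RPKM or more in at least 2 of them. Of 28071 RNA identifiers, 27531 had a symbol and 21298 joined a RefSeq gene. The procedure was tested on simulated data. P-values measure only the spread between these libraries, which may be technical.

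Named genes were, in each direction, the 12 protein-coding genes with the largest gap in percent of span, the 8 with the largest gap in bases, the 8 genes with a differing start and the largest called RNA change of either sign, list members that passed a rule, and the 6 windows of 1 Mb with the largest gap; other genes are marked as chosen after their values were seen, or are members of a family described. The members and gene lists were chosen with earlier results of these data known. Alternatives were a stricter score, matched covered length, other joining gaps, windows and thresholds, other RNA settings, a replicate block, and leaving out each library. Some markers and the gene just outside the rule for lower spans are not reported here.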

Additional observations from a re-analysis of the deposited data

How the results depend on the processing

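The percent of autosomes covered and the count of 10 kb domains, which did not separate the groups at the main settings, changed side under some alternatives. So did the balance of genes higher and lower in AI. Starts covered only in AI against only in AD numbered 254 and 206, but 415 and 593 without AD replicate 1, 428 and 455 without AD replicate 2, and 450 and 698 without AI replicate 2. Spans higher and lower numbered 87 and 71, but 86 and 97 at matched covered length, 211 and 236 without AD replicate 1, 174 and 176 without AD replicate 2, and 171 and 211 without AI replicate 2. Leaving out 1 library in turn gave 415 to 1330 gene starts covered only in AI (254 with all 4) and 377 to 698 only in AD (206), and 171 to 361 spans higher in AI (87) and 155 to 236 lower (71), where fewer libraries have to agree. The difference in median width was 242 to 764 bases without 1 library and 838 bases once peaks were joined across gaps, against 502 bases. The ratio of counts of 10 kb domains, AI to AD, was 1.56 with a gap of 1000 bases, against 1.07, and 0.843 with a gap of 10000 bases. With each of these 2 gaps the counts of the groups did not overlap, in opposite directions. A 25-point rule gave 458 spans higher and 287 lower, and genes of any length gave 219 and 222. The ratio of counts of 10 kb domains was 0.894 to 1.32 without 1 library. The difference in percent of autosomes covered was 0.467 points, and -0.311 to 1.25 without 1 library.

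For RNA, genes with starts covered only in AD that fell in mock cells numbered 2, 1 with a pseudocount of 1, 0 with quantile normalization and 0 to 1 without 1 library. With no filter, genes with starts covered only in AD that rose numbered 7 in untreated (3) and 2 in mock cells (1), and those covered only in AI that rose or fell in mock cells numbered 2 (1) and 19 (12). Quantile normalization gave 4 genes covered only in AI that rose in mock cells. Genes covered only in AI that rose in untreated cells numbered 1 to 2 without 1 library. The causes were not tested beyond the looser filter and the fewer libraries. For single genes, span differences and RNA changes together, 374 values were rated the same as with the main settings and 27 weaker. Among these, the spans of all 47 named genes were rated the same in each setting without 1 library. Where the groups already lie apart, leaving out 1 library cannot bring them together, so those ratings carry no information.

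With the replicate number as a block, genes with starts covered only in AI numbered 1 rising and 5 falling in untreated cells and 1 and 13 in mock cells, and those covered only in AD 2 rising (3 without the block) in untreated cells, and 1 rising and 2 falling in mock cells. The labels give the 2 replicates a shared number and no shared culture or day, and 2 pairs cannot settle whether it pairs them. The deviations of same-numbered libraries correlated at 0.701 in untreated RNA, 0.0617 in mock RNA and 0.057 in H3K27me3 windows. Peak lists have unknown depth, so a gene without a peak is not shown to lack the mark.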
